A study of Homo sapiens with 6 samples.

Results

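Readthrough regions of intermediate strength are the stretches downstream of a gene (DoG regions) whose mean level was at least 0.25 of the level of their own gene but below 1. A region was tied to the host gene of exactly the same name, and its mean normalized count was divided by the mean normalized count of that gene. This took in 582 of the 2014 deposited regions, out of 1798 that could be tied by name. Of the other tied regions, 466 lay below 0.25 and 750 at or above 1. The members were thus selected on these measured means, which are averages over all libraries, are not per length, and the tables of regions and genes may have been scaled separately, so the ratio only ranks relative readthrough. The fold changes between knockdown and control took no part in the choice.

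The study measured RNA in MDA-MB-231, an established triple-negative breast cancer cell line, and asked which genes and readthrough transcripts change when UBE3D, an E3 ubiquitin ligase family gene, is depleted. There were 3 libraries of control cells and 3 of cells in which doxycycline induced short hairpin RNAs against UBE3D, carried on a lentivirus that had integrated into the genome. The labels do not say which hairpin, if any, the control carried, nor whether it received doxycycline. Every sample carries the label pooled, and no label says that the libraries are from separate cultures. The p-values then reflect only how the 6 libraries vary, and that variation may be technical.

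Most protein-coding transcripts end when the poly(A) signal, commonly AATAAA or ATTAAA in DNA letters, has been transcribed and the endonuclease CPSF73 (gene CPSF3) of the cleavage and polyadenylation complex cuts the RNA just downstream. The exonuclease XRN2 then degrades the RNA still attached to RNA polymerase II, and the polymerase leaves the template. Where cutting or release is delayed, transcription runs on past the gene and a DoG transcript appears, often running toward or through the next gene.

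The files give 1 comparison, knockdown over control, with no value per library. Depth is therefore unknown, no value per replicate can be printed, and the standard error (SE) is the sole measure of precision. All fold changes are log2 values that were shrunken toward 0 before deposit. UBE3D was at -0.80 (SE 0.37, adjusted p = 0.00632 by DESeq2) in the authors' deposited table at a mean of 36.7, and with a Wald test on the shrunken values its adjusted p was 0.295. Of the markers of the line, the authors' deposited table gives VIM, CD44, CAV1 and EGFR means from 2754 to 8692 normalized counts. The hormone receptor genes ESR1 and PGR, the blood marker PTPRC and the endothelial marker PECAM1 had means from 22.2 to 51.1 there, with the lowest for ESR1. In the same table CDH1 was at 74.9, EPCAM at 382, ERBB2 at 758 and the epithelial keratin gene KRT18 at 2490, all not per length.

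Of the 582 host genes, 575 were placed on GRCh38 with GENCODE 29, and 561 are protein-coding. The coordinates of the regions themselves are not given in the files, so each region is located by the end of its host, past which it is taken to run. The last 30 bases of 1 GENCODE transcript per host are shown for members on which the results below turn, as an annotated end of the host. Capitals mark the poly(A) signal hexamer nearest the end, and hosts printed without capitals have neither hexamer in these 30 bases. The first 7 hosts have an expressed gene of the opposite strand at or past their end, and the last 7 have none. Distances below are counted from the far end of the whole gene, and some printed ends lie well inside it: 28.7 kb for UPF3B, 23.5 kb for CXADR, 10.5 kb for DLD, 9.2 kb for SLC25A26 and 4987 bases for HSPB11. For 141 of the 575 placed members the transcript ended more than 1 kb inside the gene.
YARS (chr1:32775239-32775268, minus strand): ataaattcaAATAAAatgtctgaacaaggg
TMEM208 (chr16:67229249-67229278, plus strand): agggtcgttgAATAAAtggcttagaatgtg
SLC25A26 (chr3:66378898-66378927, plus strand): ataAATAAAtaactttgtacataaaagtaa
CXADR (chr21:17570071-17570100, plus strand): gtacttttgaAATAAAatcaagaaagcagt
DLD (chr7:107921174-107921203, plus strand): gAATAAAacaagttttaagtgttcacttac
LIMS2 (chr2:127638428-127638457, minus strand): cacgcttgcacaatgaaggcttgttcacac
TNIP1 (chr5:151029949-151029978, minus strand): atcatggacataaatccaagttgaagaaga
ATPAF1 (chr1:46632737-46632766, minus strand): ataaataggtaatatggatttcaaccaaaa
AURKB (chr17:8204773-8204802, minus strand): cctaactgttcccttatctgttttctacct
UPF3B (chrX:119834022-119834051, minus strand): cAATAAAtagtaacagcattcaagtgtgaa
NKAP (chrX:119920672-119920701, minus strand): ttattactcAATAAAtattctgtggtttga
HSPB11 (chr1:53921561-53921590, minus strand): gatatactttATTAAAaggatttttatcaa
CD82 (chr11:44620334-44620363, plus strand): agactATTAAAgaggatttataacagtcta
CLMP (chr11:123069865-123069894, minus strand): aaaaAATAAAcaagtaaaagtgatactgta

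Ends with and without a hexamer occur in both groups. The hexamers AATAAA and ATTAAA were searched on the sense strand in the last 40 bases of the transcript, with AATAAA counted first where both occurred. AATAAA was found for 309 of the 575 placed members (53.7%) and ATTAAA for 97 (16.9%), and 29.4% had neither. Over 19009 genes of the gene table with a transcript the shares were 58.0%, 13.4% and 28.6%. A match says only that these letters are present in the window. Member hosts had transcripts with a median of 9 exons and 3455 spliced bases, against 10 exons and 3779 bases for hosts with a ratio below 0.25 and 7 exons and 2559 bases for those at or above 1.

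Member regions moved in both directions. By the authors' deposited table, 90 of the 582 rose (15.5%) and 92 fell (15.8%) at an adjusted p below 0.05 (DESeq2, Benjamini-Hochberg), beside 12.7% of all 2014 regions that rose and 16.1% that fell. The median log2 fold change was -0.01, with quartiles at -0.17 and 0.20 and extremes at -1.74 and 2.38. A change of at least 2-fold was reached by 7 rises and 7 falls, beside 19 and 17 of all 1798 tied regions. Of the 466 regions with lower ratios 66 rose and 32 fell, and of the 750 with higher ratios 65 rose and 162 fell. Mean region levels of members ran from 28.1 to 1974 normalized counts, with a median of 226.

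**Figure D1:**
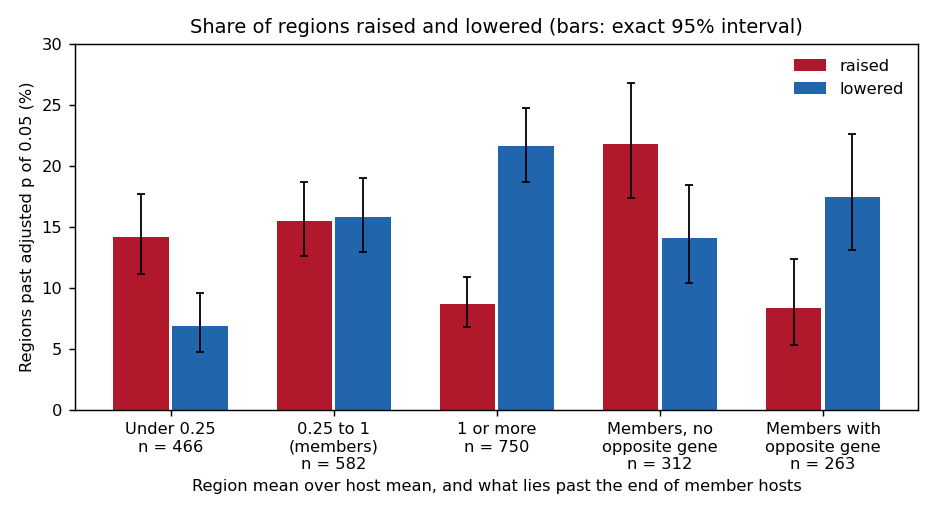
Percent of regions raised (red) and lowered (blue) at an adjusted p below 0.05, with exact 95% intervals that cover counting of regions only, for the 3 ranges of region mean over host mean and for members with and without an expressed opposite-strand gene within 10 kb past the host's end. Members as a whole are balanced at 15.5% and 15.8%, while those without such a gene have more rises (21.8%) than falls (14.1%) and those with one the reverse (8.37% and 17.5%).

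The split was not the same at all levels. Of 86 members with a mean below 100 normalized counts, 15 rose and 10 fell, and of 165 members between 100 and 200, 31 rose and 20 fell. In the largest class, 232 members between 200 and 500, 36 rose and 36 fell. Among 77 members between 500 and 1000, 7 rose and 19 fell, and of the 22 above 1000, 1 rose and 7 fell. By ratio there were 42 rises and 39 falls of 270 from 0.25 to 0.5, 28 and 29 of 194 from 0.5 to 0.75, and 20 and 24 of 118 from 0.75 to 1. The share of regions above 0 was 52.6%, 45.4% and 44.1% in the same order. Fewer regions were above 0 at higher ratios, as also in the counts outside the edges.

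The most abundant member regions followed G3BP1, a stress granule gene (mean 1974), POLR2B, which encodes the second largest subunit of RNA polymerase II (1781), the corepressor gene NCOR1 (1583), TAF8 of the TFIID complex (1552) and RDX, the actin-binding radixin gene (1551), per the authors' deposited table. The regions past POLR2B (-0.54, SE 0.18) and NCOR1 (-0.40, SE 0.12) fell in the authors' deposited table while their genes were at 0.04 (SE 0.12) and -0.01 (SE 0.11). The overlapping opposite-strand genes IGFBP7 and TTC19 were at -0.30 and -0.14 in the authors' deposited table. The other 3 did not pass the threshold. At the edges of the selection, CDC42 and TELO2 (both 0.251) and MBD3 (0.254) were just inside the lower limit and AURKA (0.248), EXT1 (0.249) and POLR1A (0.249) just outside. At the upper limit TAF8 (0.990), FTSJ3 (0.995) and CENPM (0.9998) were inside and PPP2R1B (1.003), ZNF324B (1.005) and CELSR2 (1.008) outside.

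The host genes of members changed in nearly equal numbers both ways. By the authors' deposited table, 51 hosts rose (8.76%) and 50 fell (8.59%), beside 4.62% of all genes that rose and 7.93% that fell, a table that also holds weakly expressed genes. Region and host both rose in 24 cases, both fell in 25 and went opposite ways in 3. In 130 cases the region alone passed the threshold, in 49 the host alone and in 351 neither. Over all 1798 tied regions, both rose in 63 cases, both fell in 58 and they went opposite ways in 12. The region alone passed there in 374, the host alone in 157 and neither in 1134. Across the 582 pairs, which share the same 6 libraries, the fold changes of region and host had a Pearson correlation of 0.50.

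To ask whether a region moved apart from its gene, the log2 fold change of the host was subtracted from that of the region, the difference was scaled by the SE that both errors give together, and the two-sided normal p-values were adjusted over all 1798 tied regions. By this test 29 member regions were above their host (4.98%) and 22 below (3.78%), beside 4.06% above and 4.62% below among all tied regions. These shares are close to the background. Over their SE, fold changes had a median of 0.640 (genes) and 0.827 (regions) of the normal quantile of the p-value. The difference was not corrected for this unequal shrinkage. The 51 differences were then described by what lies past the host's end, a division chosen after seeing the data.

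An expressed gene of the opposite strand, with a mean of at least 50, lay within 10 kb past the end of 263 member hosts (45.7% of the placed members), against 140 of the 466 placed hosts with a ratio below 0.25 and 508 of the 725 at or above 1. Of these 263 regions, 22 rose and 46 fell, and 9 were above and 20 below their host. Of the 312 placed members without such a gene, 68 rose and 44 fell, and 20 were above and 2 below their host. The difference between the 2 classes was not tested. Their levels also differed: the median region mean was 286 with an opposite-strand gene and 192 without.

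Where an opposite-strand gene overlapped the host's end or lay within 1 kb of it (206 members), the region's fold change lay along that of the gene on the other strand. The correlation between region and opposite-strand gene was 0.85, against 0.26 between region and host, and the median absolute difference in log2 fold change was 0.11 against 0.18. Region and opposite-strand gene had the same sign in 157 of the 206 cases, and region and host in 105. With an opposite-strand gene up to 1 kb away but not overlapping (48 members) the correlation was 0.97, and with one overlapping the end (158) it was 0.72. It was 0.80 at 1 to 2 kb (24 members), 0.38 at 2 to 5 kb (21) and 0.22 at 5 to 10 kb (12). The correlation with the host was 0.23, 0.29, 0.08, 0.37 and 0.62 in the same order. All points come from the same 6 libraries, and the last classes are small. In the 150 of the 206 members whose transcript ended at most 1 kb inside the gene's far end, a selection added after seeing the data, the correlations were 0.86 and 0.28.

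**Figure D2:**
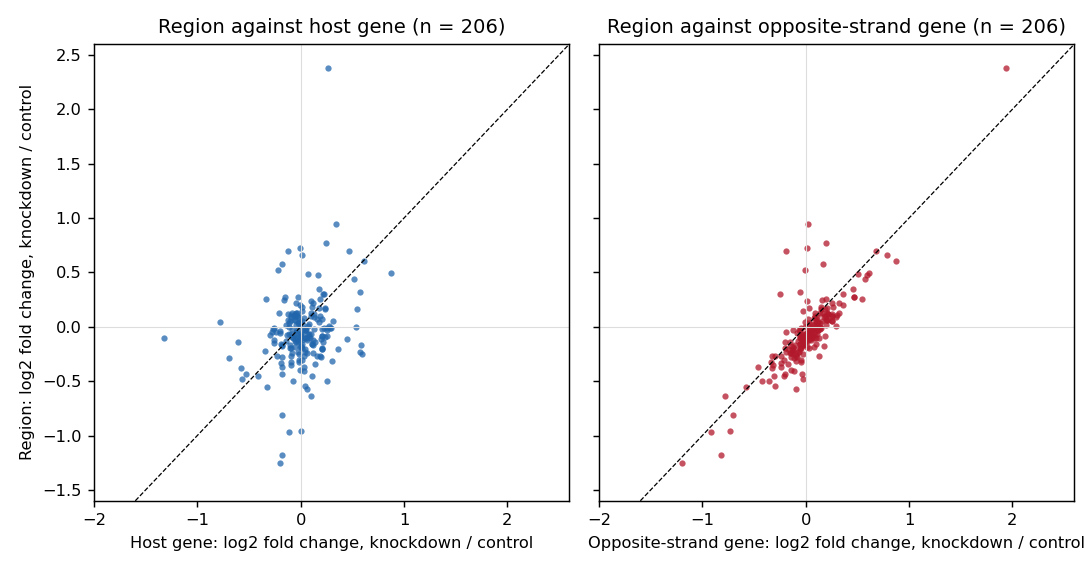
Log2 fold change, knockdown over control, of 206 member regions (vertical) against that of their host gene (left) and of the opposite-strand gene that overlaps the host's end or lies within 1 kb of it (right). Each point is 1 region and the dashed line marks equal change. Points on the right lie along the line (correlation 0.85), those on the left scatter across it (0.26).

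**Figure D3:**
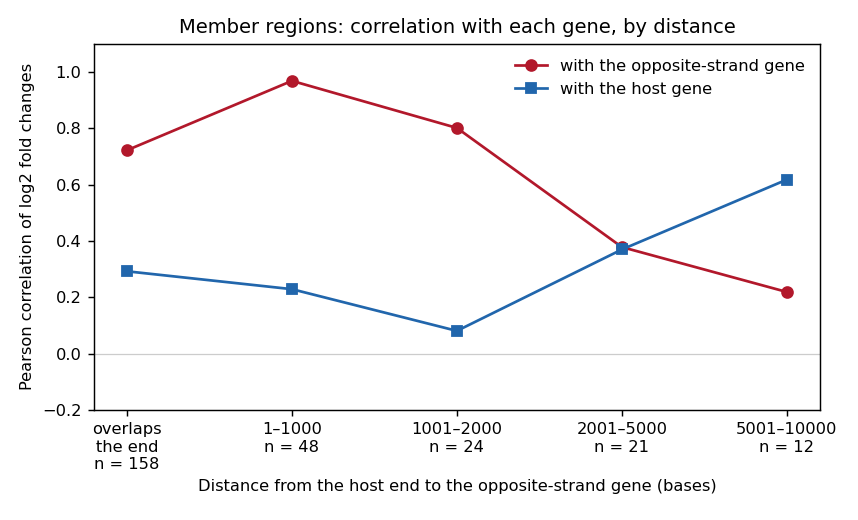
Pearson correlation of the region's log2 fold change with that of the opposite-strand gene (red) and of the host gene (blue), by the distance from the host's end to the opposite-strand gene in bases. The number of members is given under each class, from 158 that overlap to 12 at 5 to 10 kb, and the red line falls from 0.97 to 0.22 while the blue one ends at 0.62.

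The direction of called changes followed the same division. Of the 263 opposite-strand genes 18 rose in the authors' deposited table, and 12 of the regions running toward them rose while none fell. Another 19 of these genes fell, and 16 of their regions fell while none rose. The other 10 rises and 30 falls were of regions whose opposite-strand gene did not pass the threshold. When the region was compared with its opposite-strand gene in place of its host, a test chosen after seeing the data, 2 of the 263 members differed, against 29 in the comparison with the host. Over all 911 tied regions with such a gene, 0.768% differed from it and 10.8% from their host. The 2 members were the regions past CDCA7L, at 0.94 (SE 0.16) beside 0.02 (SE 0.17) for DNAH11, and LRRC57, at 0.70 (SE 0.16) beside -0.19 (SE 0.12) for SNAP23, per the authors' deposited table. A p-value that misses the threshold does not show that region and opposite-strand gene changed alike. Over all 263 members the opposite-strand gene was nearer than the host in fold change in 175 cases. In 12 of the 29 that differed from their host, the host itself had passed the threshold.

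The largest falls of this kind were at YARS, the tyrosyl-tRNA synthetase gene, SLC25A26, the mitochondrial S-adenosylmethionine carrier gene, TNIP1, an inhibitor of NF-kappaB signalling, and TMEM208. In the authors' deposited table the region past YARS (host at chr1:32775237-32818153, minus strand) was at -1.25 (SE 0.10), YARS at -0.20 (SE 0.14) and KIAA1522, which lies 267 bases further, at -1.19 (SE 0.11). The region was thus 1.06 below its host on the log2 scale (95% interval -1.40 to -0.71, adjusted p = 3.95e-07). The region past SLC25A26 was at -1.18 (SE 0.21) beside -0.18 for the gene and -0.82 for the overlapping LRIG1, a negative regulator of EGF receptor signalling, in the authors' deposited table. The same table has the region past TNIP1 at -0.97 (SE 0.07) beside -0.12 for the gene and -0.91 for GPX3, the secreted glutathione peroxidase gene 952 bases away. TMEM208, at 0.00, had a region at -0.96 (SE 0.17) in the authors' deposited table and FHOD1, a formin gene 109 bases away, was at -0.74 (SE 0.17). In all 4 the region lay near the opposite-strand gene while its own host did not pass the threshold.

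Rises showed the same arrangement. The region past LIMS2, a focal adhesion adaptor gene, had the highest fold change of all members in the authors' deposited table, at 2.38 (SE 0.36), beside 0.26 (SE 0.19) for LIMS2 and 1.93 (SE 0.52) for MYO7B, a myosin gene 652 bases past its end. Among further cases, named after their values were seen, the region past UBN1, a histone chaperone gene, was at 0.66 (SE 0.18) beside 0.02 for the gene and 0.79 for PPL, the periplakin gene, in the authors' deposited table. The regions past TCOF1 (-0.70) and the ubiquitin ligase gene CBL (-0.81) lay beside CD74 (-0.72) and the adhesion gene MCAM (-0.70), with hosts at 0.06 and -0.18, per the authors' deposited table.

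In other pairs it was the host that moved and the region that stayed with the opposite-strand gene. CXADR, the coxsackievirus and adenovirus receptor gene, was at -1.32 (SE 0.15) in the authors' deposited table, while its region was at -0.10 (SE 0.14) and BTG3, 74 bases past the far end of the gene, at 0.13 (SE 0.13). The difference between region and host was 1.22 (95% interval 0.83 to 1.62, adjusted p = 3.46e-07). TMEM200B was at 0.59 (SE 0.16) in the authors' deposited table, its region at -0.25 (SE 0.16) and the overlapping EPB41, a membrane skeleton gene, at -0.09 (SE 0.10). DLD, which encodes dihydrolipoamide dehydrogenase, and LAMB1, the laminin beta-1 gene, face each other on chromosome 7, and both regions are members. In the authors' deposited table the region past DLD fell (-0.64, SE 0.16) while DLD was at 0.10 (SE 0.12), and LAMB1 fell (-0.78, SE 0.17) while the region past LAMB1 was at 0.04 (SE 0.13). Each region thus stood near the facing gene and away from the gene it is named for. The whole gene extents overlap at their ends.

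**Figure D4:**
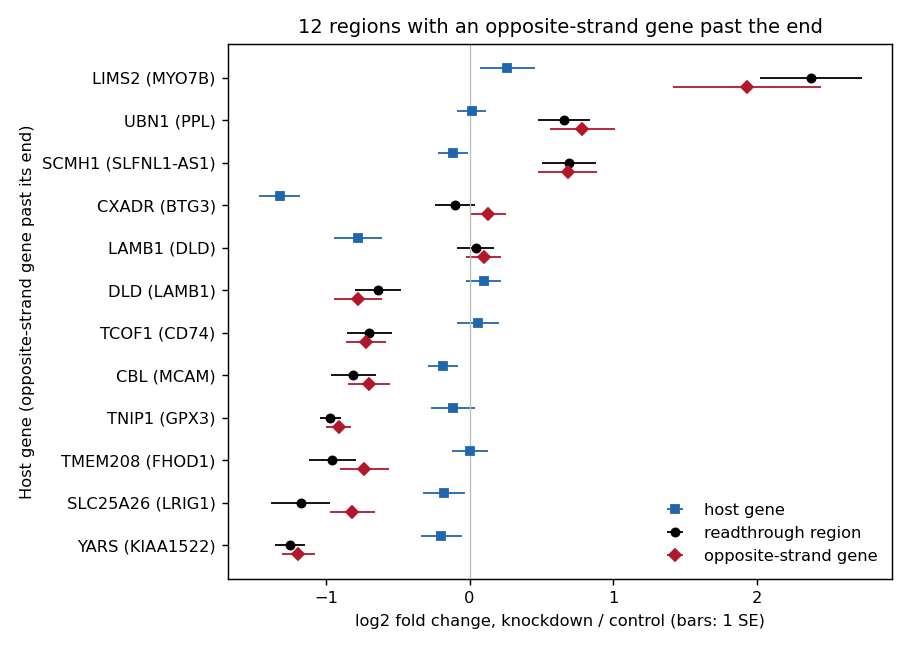
Log2 fold change with 1 SE for 12 members that were apart from their host, showing the host gene (blue squares), the region (black circles) and the opposite-strand gene (red diamonds, named in parentheses). The region lies nearer to the opposite-strand gene than to the host in each row, from -1.25 beside -1.19 at YARS to 2.38 beside 1.93 at LIMS2. The 12 were chosen after their values were seen. They were taken only from regions apart from their host, a choice that favours nearness to the other gene. Of all 263 members with an opposite-strand gene, 175 were nearer to that gene than to the host.

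A few of the 29 lay less close to the opposite-strand gene. The region past COX15, a heme A synthesis gene, was at 0.53 (SE 0.10) in the authors' deposited table, with COX15 at -0.22 and the overlapping CUTC at -0.01. The region past TBCD, a tubulin folding cofactor gene, was at -0.57 (SE 0.15) there, with TBCD at 0.06 and B3GNTL1 at -0.09. Whether the counting used strand is not given in the sources used here. Without strand, reads of a region and of a gene on the other strand cannot be told apart, and their part in these values was not tested.

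With neighbours of the same strand the host was the closer partner by correlation. In the 18 members with an expressed same-strand gene overlapping the end or within 1 kb, the correlation of the region was 0.34 with that neighbour and 0.48 with the host. By sign there was little between them: the region had the sign of the neighbour in 13 of the 18 and of the host in 12. In the 44 with a same-strand gene from 2 to 10 kb away it was 0.15 with the neighbour and 0.70 with the host.

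The remaining 312 placed members had no expressed opposite-strand gene past the end. Here region and host had a correlation of 0.60, the median log2 fold change was 0.07 for the regions and 0.02 for the hosts, and 159 of the 312 lay above their host. By the test 20 of the 312 were above their host (6.41%) and 2 below (0.641%). Of regions without such a gene, 20 of 326 were above and 2 below at ratios under 0.25 (6.13% and 0.613%), and 7 of 217 above and 4 below at ratios of 1 or more (3.23% and 1.84%). The members' share was thus near that of the weaker regions, and the differences between these shares were not tested. In 15 of the 20 the region itself rose, in 13 of them with a host that did not pass the threshold. In 6 of the 20 the host fell, in 1 of them with a region that rose. With a minimum mean of 10 for the opposite-strand gene, 17 of 273 members were above and 1 below, and with a window of 50 kb 15 of 249 were above and 1 below.

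**Figure D5:**
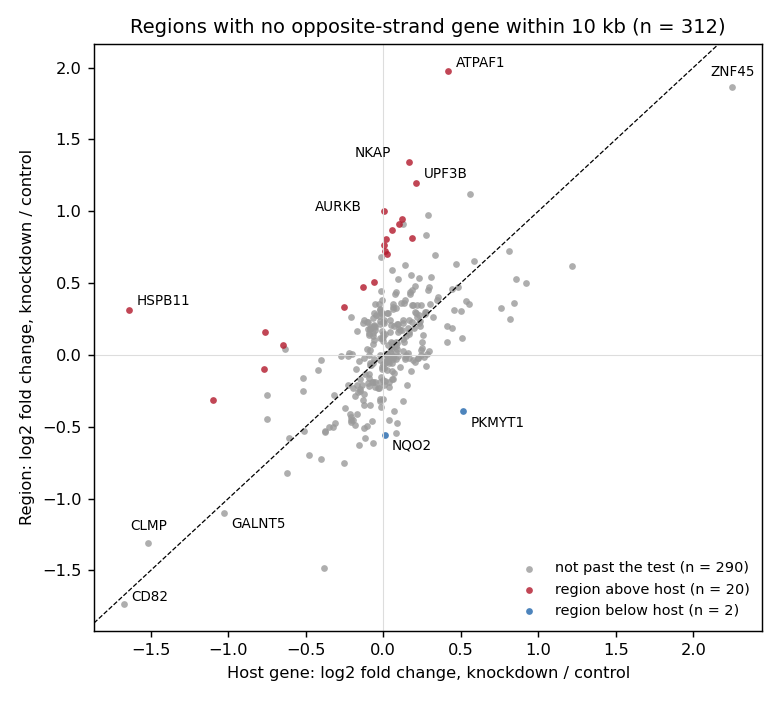
Log2 fold change of region against host gene, knockdown over control, for the 312 members with no expressed opposite-strand gene within 10 kb past the host's end. Each point is 1 region, the dashed line marks equal change, and 20 regions that passed the test above their host (red) and 2 below (blue) are coloured.

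The largest rises of this kind were at ATPAF1, an assembly factor gene of the mitochondrial ATP synthase, NKAP, a transcriptional repressor and splicing gene, UPF3B, a nonsense-mediated decay gene, and AURKB, the mitotic kinase gene. The region past ATPAF1 (host at chr1:46632737-46673867, minus strand) was at 1.98 (SE 0.18) and ATPAF1 at 0.42 (SE 0.19) in the authors' deposited table, and the difference was 1.56 (95% interval 1.05 to 2.07, adjusted p = 3.95e-07). The region past AURKB (host at chr17:8204733-8210600, minus strand) was at 1.00 (SE 0.17) while AURKB was at 0.00 (SE 0.11) in the authors' deposited table (adjusted p = 5.52e-05 for the difference). UPF3B and NKAP lie on the minus strand of chromosome X, at chrX:119805311-119852998 and chrX:119920672-119943772. Their regions were at 1.19 (SE 0.16) and 1.34 (SE 0.31) in the authors' deposited table, and the genes at 0.21 (SE 0.18) and 0.17 (SE 0.18). In each of these 4 the region rose by more than its gene. AKAP14, of the opposite strand, lies within 10 kb past NKAP and is not in the gene table.

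Further members above their host included genes of RNA metabolism and of the nucleus. Those given here, apart from MBD3, were outside the naming rule and named after their values were seen. In the authors' deposited table the regions past SNRPA, which encodes a protein of the U1 snRNP, LSM6, of the LSm ring on U6 snRNA, and MBD3, of the NuRD complex, were at 0.95 (SE 0.26), 0.87 (SE 0.18) and 0.81 (SE 0.13), with hosts at 0.12, 0.05 and 0.18. The regions past SLC25A11 (0.80), FAM127A (0.76), TMEM138 (0.73) and AHCY, the adenosylhomocysteinase gene (0.70), had hosts from 0.00 to 0.02 in the authors' deposited table. YIPF4 (0.51), DCTD, the deoxycytidylate deaminase gene (0.47), and LRP10 (0.33) also had regions that rose, with hosts at -0.06, -0.13 and -0.25 in the authors' deposited table. For these 10 the region rose and none of the hosts did. GP1BA, of the opposite strand past SLC25A11, had a mean of 47.7 in the authors' deposited table, just below the minimum of 50.

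HSPB11, a gene of the intraflagellar transport machinery, showed the largest difference without an opposite-strand gene by size, and it came with a fall of the gene. HSPB11 (chr1:53916574-53945929, minus strand) was at -1.64 (SE 0.22) in the authors' deposited table, while its region was at 0.31 (SE 0.18) and did not pass the threshold. The difference was 1.95 (SE 0.28, adjusted p = 3.85e-09). An opposite-strand gene below the minimum, DIO1, with a mean of 29.1 in the authors' deposited table, lies within 10 kb of its end. ZNF697 (-1.10), TMEM65 (-0.77), ABHD5 (-0.76) and ARF3 (-0.65) also fell in the authors' deposited table, with regions from -0.32 to 0.16 that did not pass the threshold.

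The 2 regions below their host were those of PKMYT1, a kinase gene that restrains CDK1, and NQO2, a quinone reductase gene. The region past PKMYT1 was at -0.39 (SE 0.17) and the gene at 0.51 (SE 0.19) in the authors' deposited table. KREMEN2, of the opposite strand and within 10 kb of PKMYT1, had a mean of 19.1 there and was below the minimum. The fall of the PKMYT1 region was lost in a Wald test on the shrunken values. The region past NQO2 was at -0.56 (SE 0.13) and NQO2 at 0.01 (SE 0.11) in the authors' deposited table.

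The other large changes did not pass the test against the host. The region past CD82, a tetraspanin gene (chr11:44564427-44620363, plus strand), was at -1.74 (SE 0.20) with CD82 at -1.67 (SE 0.16), per the authors' deposited table. CLMP, a cell adhesion gene (region -1.31, host -1.52), GALNT5, a gene of mucin-type O-glycosylation (-1.10 and -1.03), and LOC389602 (-1.66 and -1.37) fell with their regions in the authors' deposited table. ZNF45, a zinc finger gene, rose with its region (1.87 and 2.25 for the gene), as did BST2, the tetherin gene (1.12 and 0.56), in the authors' deposited table. The region past UBXN2A, a gene for an adaptor of the p97 ATPase, was at 0.97 with the gene at 0.29 (adjusted p = 0.0543 for the difference), and that past TCP11L2 at -1.49 with the gene at -0.38 (adjusted p = 0.0778), by the authors' deposited table.

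Genes of the 3' end machinery had 6 regions tied by name, of which 2 were members, beside 582 of all 1798 tied regions. Of 40 cleavage, polyadenylation, termination and Integrator genes in the gene table, 2 rose and 4 fell in the authors' deposited table, UBE3D itself counted among the falls. The others include PCF11 (0.52), which acts in cleavage and termination, and the poly(A) polymerase gene PAPOLA (-1.15). Of these 40, 2 had member regions: the region past CSTF1, a subunit of the cleavage stimulation factor, fell (-0.51, SE 0.22, host -0.12), and that past INTS8 was at -0.09 (SE 0.14), in the authors' deposited table. The call for CSTF1 was lost in a Wald test on the shrunken values.

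Of 203 ubiquitin-conjugating and ligase genes, 9 rose and 23 fell, and 9 had member regions, of which 1 rose and 2 fell. These were RNF217 (0.69, SE 0.17), RNF24 (-0.32, SE 0.12) and UBE2R2 (-0.29, SE 0.10) in the authors' deposited table. The hosts of the 3, at 0.33, -0.10 and -0.03, did not pass the threshold there.

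The zinc finger list was the longest and contributed the most members, 31 of the 538 measured. Of 85 zinc finger regions tied by name 31 were members, beside 582 of all 1798 tied regions. Per the authors' deposited table, 115 of the 538 genes rose and 9 fell. Among the 31 member regions there were 6 rises and 2 falls, beside 90 and 92 of all 582 members. Their median log2 fold change was 0.12 beside -0.01 over all regions. Of the 31 host genes 8 rose and 1 fell, beside 51 and 50 of all 582 hosts of members, and their median was 0.18. By the test against the host, 1 of the 31 regions was above its gene and 0 were below. The largest rise after ZNF45 among the named ones was ZNF841 (0.53, SE 0.11, host 0.86), and ZNF462 fell (-0.58, SE 0.22, host -0.12), per the authors' deposited table. The fall at ZNF462 was lost when the fold changes were shifted to a median of 0 and put to a Wald test.

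The other lists had few regions tied by name. Members were 1 of 6 such regions for stress and immediate early genes and 2 of 18 for ribosomal proteins. They were 3 of 10 for histones and 1 of 3 for interferon-stimulated genes, beside 582 of all 1798 tied regions. Of 33 stress and immediate early genes 4 rose and 9 fell, and the 1 member, the region past the AP-1 gene FOSL1, fell (-0.45, SE 0.19) with its host (-0.41, SE 0.14) in the authors' deposited table. Of 115 ribosomal protein genes 5 rose and 3 fell, and of their 2 member regions that past RPS25 fell (-0.27, SE 0.10, host 0.15), while that past RPL37A was at 0.16 (SE 0.09), in the authors' deposited table. Of 35 interferon-stimulated genes 16 rose and 2 fell in the authors' deposited table. The call for FOSL1 was lost in a Wald test on the shrunken values. None of the 3 member regions past histone genes passed the threshold (adjusted p from 0.432 to 0.947, DESeq2). Of 28 migration and matrix genes 22 fell in the authors' deposited table. Only 2 of the 28 had a region tied by name, and neither region was a member.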

How the data were processed

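Knockdown and control were compared by the authors, who deposited 1 table for 20115 genes and 1 for 2014 DoG regions. Per the file headers, the columns are a mean of normalized counts across libraries (a signal), a log2 fold change with its SE in log2 units, and the raw and adjusted p-value of DESeq2. Reads were stranded pairs from ribosome-depleted total RNA copied with random primers, per the labels' protocols. Cutadapt 1.8.1, STAR 2.5.2b, DESeq2 and hg38 are named in the submitters' processing notes. Annotation, counting tool, strand setting and DoG calling: not given in the sources used here. Recomputing the Benjamini-Hochberg adjustment within each table gave the deposited adjusted p-values. The deposited fold changes are shrunken: over their SE they had a median of 0.827 (regions) and 0.640 (genes) of the normal quantile of the p-value.

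The members and gene lists were chosen with earlier results of these data known. Regions were tied to genes by exact name, and 38 more would have been members with merged names. Regions and genes changed at an adjusted p below 0.05. Named members were the 8 largest rises and falls, the 6 largest differences from the host in each direction (all at a mean of at least 50), the 3 nearest each edge on either side, the 5 most abundant, and up to 4 per gene list by p-value; others were named after their values were seen. Host and neighbour positions are gene extents of GENCODE 29, matched by symbol for 19016 genes (22 member hosts by another symbol). Neighbours are the nearest expressed gene of each strand, and a distance counts from the host's far end. Intervals of shares are exact Clopper-Pearson 95% intervals. Differences assume independent normal errors. The test was run on simulated data, but these drew region and host errors independently, so they do not check that assumption. Python 3.11.15, numpy 2.4.6, pandas 2.3.3, scipy 1.17.1 and matplotlib 3.10.9 were used. Alternatives were other thresholds, minimum means, ratio limits, Wald tests, correlated errors, signed normal quantiles, and other windows. Some results are not reported here.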

Additional observations from a re-analysis of the deposited data

How the results depend on the processing

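No paired analysis was possible because the files hold no value per library, and leaving out a library could not be run for the same reason. Named members were put only to the Wald tests, which keep each fold change or shift all by the same small amount. Their signs could therefore hardly change, and that none did says nothing about how stable they are. The near-even counts changed order: regions were 19.2% raised and 18.0% lowered at an adjusted p below 0.1 and 21.8% and 14.1% without opposite-strand genes, and hosts 8.06% and 9.48% at a region mean of at least 100. At an adjusted p below 0.01 the share of member regions raised was 9.62% and of those above their host 2.92%. Wald tests on the shrunken values gave 8.25% raised unshifted, and 9.11% raised and 9.62% lowered after centring all fold changes on their median. For hosts these tests gave 4.12% raised and 5.50% lowered unshifted, and 4.30% and 4.64% shifted; fewer calls follow from using shrunken values. An assumed correlation of 0.5 between the errors of region and host gave 10.3% above and 9.45% below, and signed normal quantiles 6.53% below. Without members that have an opposite-strand gene 0.641% were below. Within the members that have one, 11.0% differed from the host and 0.760% from the opposite-strand gene. For the 312 members without one (6.41% above, 0.641% below), a threshold of 0.01 gave 3.53% above and 0.321% below, a threshold of 0.1 gave 1.92% below, a window of 50 kb 0.402% below, a minimum mean of 10 gave 0.366% below and a window from the end of 1 transcript 0.327% below. For these members signed quantiles gave 2.88% below and the correlation of 0.5 gave 12.2% above and 5.45% below. Apart from the construction of each alternative, the cause was not tested. Of the named calls, PKMYT1, FOSL1 and CSTF1 were lost in both Wald tests and ZNF623 and ZNF462 in the shifted one. Alternatives for the members without an opposite-strand gene were added after seeing the data.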

Other observations

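Among the 312 members with no expressed opposite-strand gene past the end, the hexamer at the transcript end went with the direction of the called regions as follows. With ATTAAA 18 of 58 regions rose and 5 fell, with AATAAA 35 of 156 rose and 26 fell, and with neither 15 of 98 rose and 13 fell. Over all placed members the counts were 23 rises and 9 falls of 97 with ATTAAA, and 43 and 58 of 309 with AATAAA. The division was made after seeing the data and no test was run on it.

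Some members lie beside each other. Of pairs of member hosts whose genes are at most 20 kb apart, 17 converge, 4 diverge and 5 lie on the same strand. Among the 17 convergent pairs both regions rose in 1 and both fell in 1, and none had called changes in opposite directions. Of the 4 divergent pairs both regions fell in 1, and of the 5 same-strand pairs 1 had opposite calls, with the region past ELP2 at 0.33 (SE 0.13) and that past MOCOS at -0.25 (SE 0.11) in the authors' deposited table.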
